A study of Homo sapiens with 6 samples.

Results

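CD79A, its B-cell partner CD79B and the genes ARHGEF1 and RABAC1, which lie beside CD79A on chromosome 19, were examined in RNA-Seq data from DU145 cells, a human metastatic prostate cancer cell line. All 4 genes were found by symbol in the deposited table of 27381 genes. They were chosen by the high value of CD79A in the column labelled CD24 KO, so the contrast of that column with Scr is a description of CD79A and not evidence for it. The study compared DU145 cells given Cas9 and a scrambled sgRNA (Scr) with DU145 cells whose CD24 gene (CD24 KO) or RCC2 gene (RCC2 KO) was targeted with Cas9 and sgRNAs, with 2 libraries per condition and 6 in all. The methods describe the knockout cells as clones grown out after sorting of GFP-positive transfected cells, and the control cells as clones as well. Which clone gave each library was not given in the sources used here. The authors deposited 3 columns of FPKM, a fragment count scaled by transcript length and by library size, with 1 value per gene and condition. No spread between libraries could be computed, no difference has a replicate check and no p-value is given. The RCC2 KO column carries the name of the first RCC2 KO library and may hold 1 library or both. The depth behind each value is unknown.

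The labels were first checked against the RNA of both target genes, and neither gene was lowest in FPKM under its own knockout label. The methods describe knockout clones identified by sequencing of genomic DNA and by Western blot of the target, measures that are not part of the table. CD24, a mucin-like surface glycoprotein, had a Scr value of 93.2 FPKM, with 309 FPKM under the CD24 KO label and 214 FPKM under the RCC2 KO label. RCC2, a regulator of chromosome condensation family member, was at 37.8, 14.2 and 41.8 FPKM in the same order. CD24 KO and RCC2 KO are therefore used here as the labels of columns, and each direction rests on those labels. The table places CD24 on chromosome Y, at a locus that overlaps TTTY14, so its FPKM may not count the CD24 gene alone.

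CD79A (Igα) and CD79B (Igβ) are membrane proteins that pair with each other and with membrane immunoglobulin to form the B-cell receptor. Antigen binding leads to phosphorylation of tyrosines in their cytoplasmic tails by Src-family kinases such as LYN, and the phosphorylated tails recruit the kinase SYK. Both genes are used as lineage markers of B cells. ARHGEF1 is a guanine nucleotide exchange factor that couples Gα12 and Gα13 to the GTPase RHOA. RABAC1 is a membrane protein of the Golgi and the endoplasmic reticulum that binds prenylated Rab GTPases.

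The Scr value of CD79A was 0.793 FPKM, its CD24 KO value 37.0 FPKM and its RCC2 KO value 1.44 FPKM. The CD24 KO value was 46.6-fold that of Scr, and the RCC2 KO value was 1.81-fold that of Scr. CD79A was thus high in 1 column of 3. In Scr, 3.47% of the 12822 genes compared, those with at least 1 FPKM in at least 1 column, lay below CD79A, and in the CD24 KO column 82.8% did. The share in the RCC2 KO column was 11.5%. In these bulk libraries, a moderate level in every cell and a high level in a few cells cannot be told apart.
CD79B, without which CD79A does not form the signaling dimer of the B-cell receptor, did not share the high value. It was at 0.169 FPKM in Scr and was listed at 0 in the CD24 KO and RCC2 KO columns, so no fold is given. CD79B did not reach the minimum of 1 FPKM in any column. The partners therefore lay far apart in the CD24 KO column, with CD79A at 37.0 FPKM and CD79B at 0.

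ARHGEF1 and RABAC1 had nearly the same value in every column. The ARHGEF1 values were 19.1 FPKM for Scr, 20.3 FPKM for CD24 KO and 19.3 FPKM for RCC2 KO. RABAC1 was at 35.5, 40.5 and 35.1 FPKM in the same order. RPS19, a protein of the small ribosomal subunit and the neighbour of CD79A on its other side, was at 485, 431 and 510 FPKM, and the table lists the microRNA gene MIR6797 at the same place. In the CD24 KO column CD79A lay between RABAC1 and ARHGEF1, whereas in Scr and RCC2 KO it lay well below both.

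**Figure D1:**
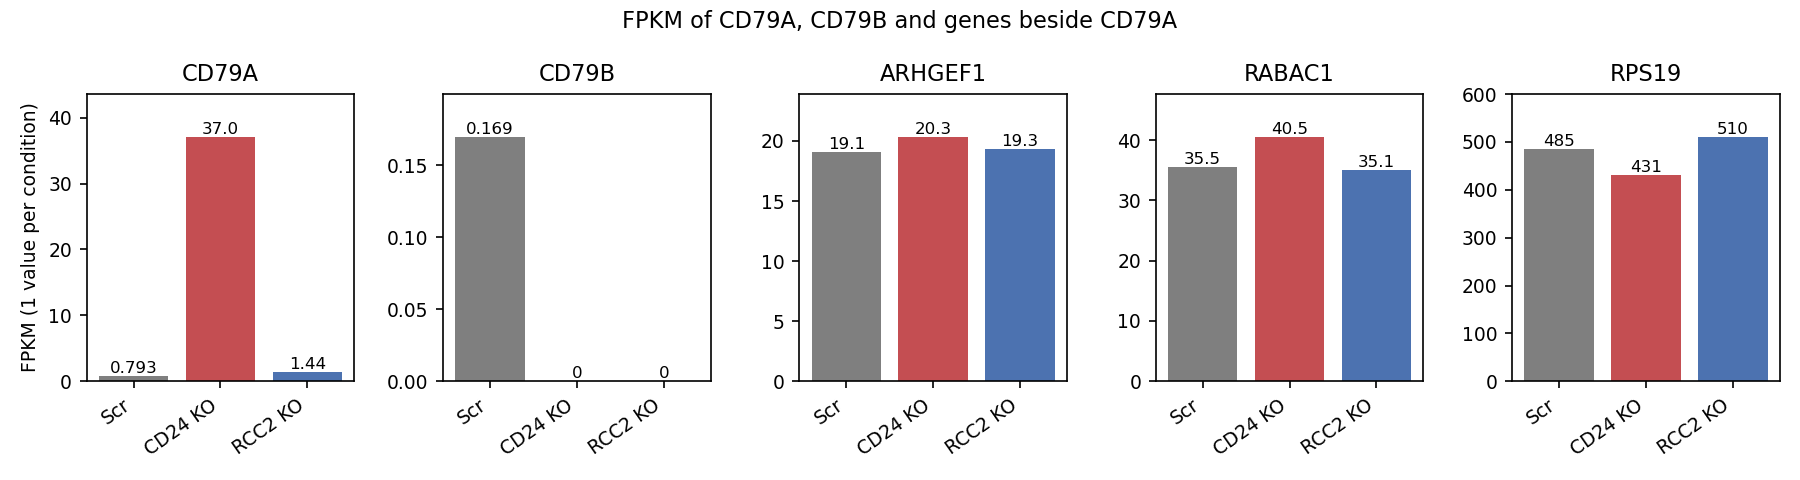
Bars show the deposited FPKM of CD79A, CD79B, ARHGEF1, RABAC1 and RPS19 for Scr, CD24 KO and RCC2 KO, 1 value per condition without error bars, with a separate linear axis from 0 for each gene. CD79A stands at 37.0 FPKM in CD24 KO against 0.793 FPKM in Scr, while ARHGEF1 stays between 19.1 and 20.3 FPKM and RABAC1 between 35.1 and 40.5 FPKM.

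Changes were taken as differences of log2(FPKM + 1), which understates the change of genes with low values, and a gene was called at a difference of at least 2-fold. Of the 4 genes, 3 were compared. CD79A was the 1 called in CD24 KO against Scr, where 5.69% of all genes compared were called. Because CD79A was selected on this contrast, nothing is read from that count. None of the 3 was called in RCC2 KO against Scr, where 1.20% of all genes were. The log2 change of CD79A was 4.41 in CD24 KO and 0.44 in RCC2 KO. ARHGEF1 had log2 changes of 0.08 and 0.02, and RABAC1 of 0.19 and -0.015. Both contrasts use the same Scr values. When the RCC2 KO column was set directly against the CD24 KO column, CD79A had a log2 difference of -3.96 and was the 1 of 3 called, with 8.31% of all genes called. This contrast uses the same CD24 KO value that chose CD79A, so it is no second result. The differences were -0.066 for ARHGEF1 and -0.20 for RABAC1.

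In CD24 KO against Scr, 11 of the 12822 genes compared had a larger log2 change than CD79A, and all 11 were listed at 0 in Scr. Among the 12737 genes compared that were above 0 in every column, none had a larger change than CD79A, and the next value was 3.89. CD79A was selected by its high CD24 KO value. Its rank in this contrast, and its place in CD24 KO among genes of like level below, therefore describe that value and are no evidence for it. In RCC2 KO against Scr, 421 genes had a larger log2 change than CD79A. To place the value among genes of like level, 2163 genes were taken whose Scr FPKM lay within 2-fold of that of CD79A, from 0.397 to 1.59 FPKM. Their median FPKM was 0.825 for Scr, 0.963 for CD24 KO and 0.692 for RCC2 KO. The 99th percentile of these genes in CD24 KO was 4.63 FPKM, and the highest gene other than CD79A was AKR1C1, an aldo-keto reductase, at 17.0 FPKM. In RCC2 KO their 99th percentile was 2.43 FPKM, and 235 of them lay above CD79A.

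**Figure D2:**
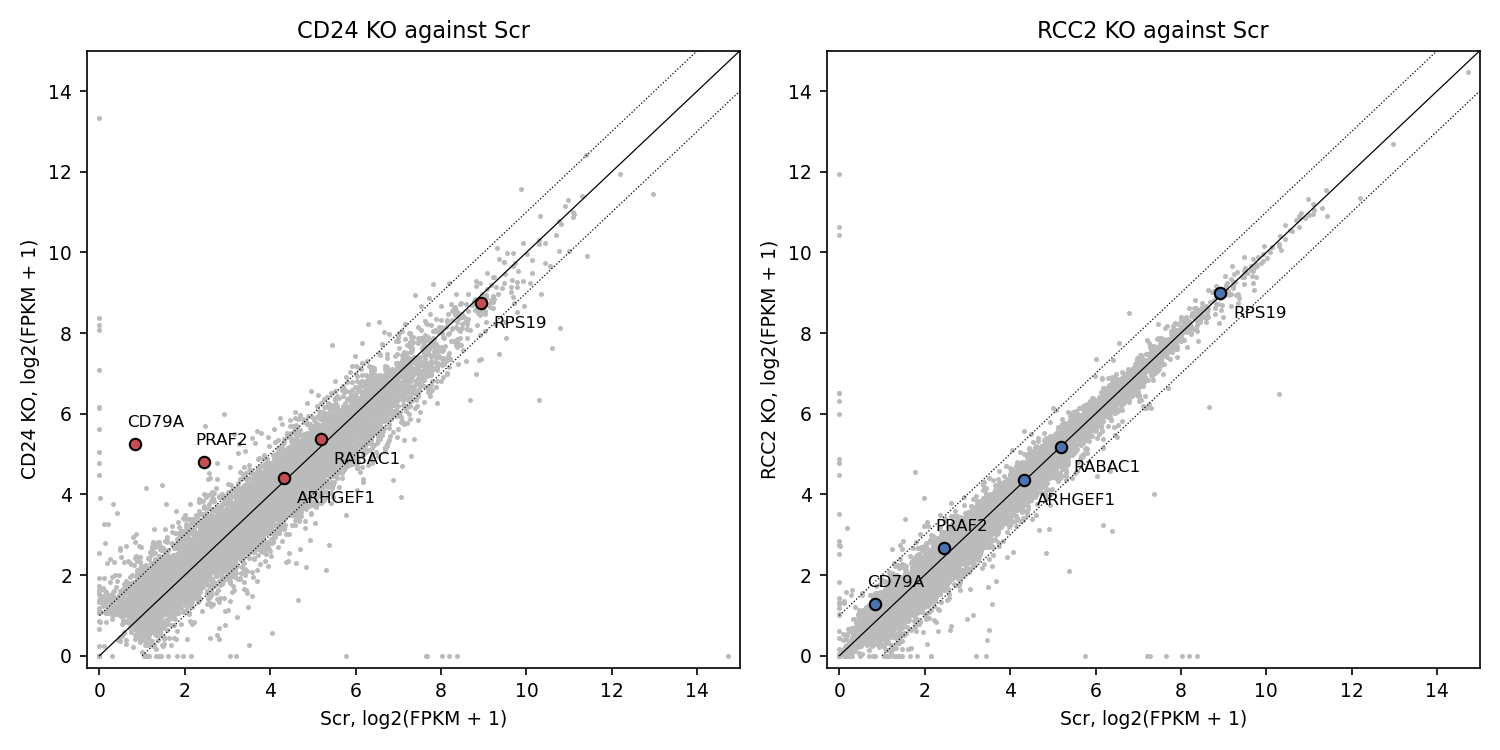
Each grey point is 1 of the 12822 genes compared, with log2(FPKM + 1) in Scr on the horizontal axis and in the CD24 KO column (left) or the RCC2 KO column (right) on the vertical axis. The solid line marks equal values and the dotted lines a 2-fold difference. CD79A lies far above the line in CD24 KO, at a log2 change of 4.41, and near it in RCC2 KO, at 0.44, while ARHGEF1, RABAC1 and RPS19 lie on or close to it in both.

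The table places CD79A on chromosome 19 from 42381190 to 42385439, RPS19 from 42363988 to 42375484, ARHGEF1 from 42387267 to 42411604 and RABAC1 from 42460833 to 42463528. CD79B lies on chromosome 17 from 62006096 to 62009714. These coordinates were read as hg19, since the table names no build and none of the 5 genes overlapped its GRCh38 position. CD79A begins 5705 bases after the end of RPS19 and ends 1827 bases before the start of ARHGEF1, and 49228 bases separate ARHGEF1 from RABAC1. No other gene of the table overlaps CD79A, CD79B, ARHGEF1 or RABAC1. In GENCODE 29, RPS19, CD79A and ARHGEF1 are transcribed from the plus strand and RABAC1 from the minus strand, and both coding CD79A transcripts of the basic set have 5 exons.
The bases just before the GENCODE start of CD79A and of ARHGEF1 are shown because these adjacent promoters, on the same strand, belong to the gene with the largest difference near this position and to a gene with almost none. They were taken from the RefSeq promoter table (GRCh38.p14, plus strand), chr19:41877029-41877119 for CD79A and chr19:41883070-41883160 for ARHGEF1, and capitals mark CG dinucleotides.
CD79A: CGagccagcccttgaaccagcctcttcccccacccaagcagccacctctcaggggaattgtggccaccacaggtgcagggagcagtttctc
ARHGEF1: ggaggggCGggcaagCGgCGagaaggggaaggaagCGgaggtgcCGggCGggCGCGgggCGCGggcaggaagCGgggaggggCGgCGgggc
Of these 91 bases, the CD79A stretch holds 1 CG dinucleotide and the ARHGEF1 stretch 13. The RefSeq starts differ from the GENCODE starts, so the full 250 bases before the RefSeq start also cover bases inside the GENCODE gene, 159 for CD79A, 23 for ARHGEF1 and all 250 for RPS19. In these windows CD79A had 4 CG dinucleotides, ARHGEF1 37 and RPS19 23, and the median of 35116 promoters was 11. Windows with fewer CG dinucleotides than that of CD79A made up 29.3% of the table, and 96.0% had fewer than ARHGEF1. The CD79A window held 1 E-box (CANNTG, the same on both strands), a motif found in 61.8% of promoters. CCCNNGGG, a core bound by EBF factors, and the octamer ATGCAAAT were not found on either strand of the CD79A window and were present in 17.1% and 1.63% of promoters. TATAAA was likewise not found there and was present in 10.7% of promoters. As 1 motif of the 4 was found, no motifs overlapped. The search covers exact matches to these letters in this window. It misses sites that differ from them by a base and says nothing of the bases before the window.

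To see whether the high CD79A value stood alone at its position, the 37 genes of chromosome 19 that start within 500 kb of CD79A were taken by position. Of these, 12 were listed at 0 in every column and 19 were compared. In CD24 KO against Scr, CD79A was the 1 gene called among the 19, or 5.26%, beside 5.69% of all genes compared. The other 18 had log2 changes from -0.42 to 0.87 with a median of -0.19, beside a median of -0.034 over all genes compared. Of the 18, 5 were higher and 13 lower. In RCC2 KO against Scr none of the 19 was called, where 1.20% of all genes were. The 18 other genes ranged from -0.71 to 0.49 with a median of -0.051, beside -0.0036 over all genes.
Within 250 kb, 16 genes were listed and 7 were compared, with 1 of 7 called in CD24 KO and none in RCC2 KO. The 1 called was the selected CD79A, 14.3% of the 7 beside 5.69% of all genes compared. CEACAM6, a cell adhesion molecule of the carcinoembryonic antigen family, came closest to a call after CD79A. Its values were 0.237, 1.25 and 0.547 FPKM for Scr, CD24 KO and RCC2 KO, with log2 changes of 0.87 and 0.32. It starts at -122 kb from the CD79A start, with RPS19 between them. The zinc finger gene ZNF574 was at 11.9, 8.97 and 12.1 FPKM, with log2 changes of -0.37 and 0.02. RPS19 had log2 changes of -0.17 and 0.07. The genes on either side of CD79A therefore had values close to those in Scr. Across chromosome 19, 913 genes were compared, of which 20 were called higher and 27 lower in CD24 KO. That is 5.15% in all, beside 5.69% of all genes compared. SNORA104, a small nucleolar RNA listed at 0 in Scr and at 47.9 FPKM in CD24 KO, was the 1 gene of chromosome 19 with a larger log2 change than CD79A. The gene that followed CD79A was CYP2S1, a cytochrome P450, with 11.0 FPKM for Scr and 41.2 FPKM for CD24 KO, a log2 change of 1.82. SNORA104 and CYP2S1 were named after their values were seen.

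**Figure D3:**
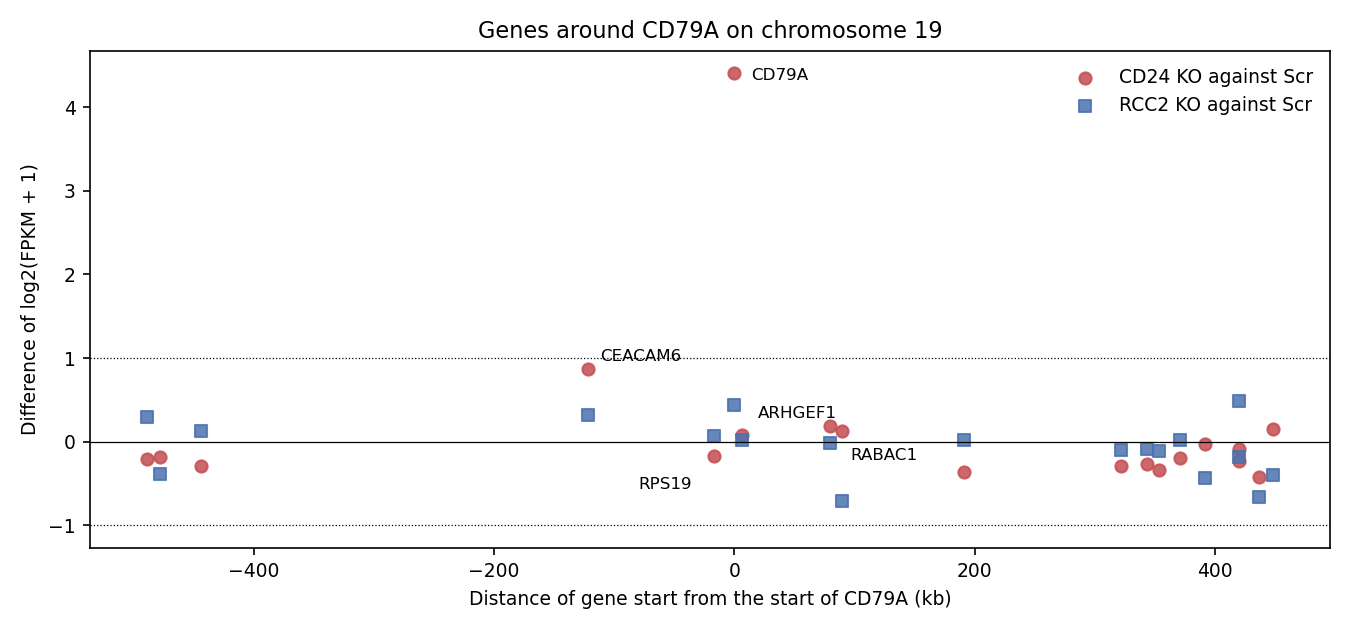
Points show the difference of log2(FPKM + 1) from Scr, CD24 KO as circles and RCC2 KO as squares, for the 19 genes compared that start within 500 kb of CD79A, against the distance of their start from that of CD79A in kb. Dotted lines mark a 2-fold difference. CD79A in CD24 KO, at 4.41, is the 1 point beyond them, and the other 18 genes lie between -0.71 and 0.87.

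Genes of the B-cell lineage were then examined from a list of 43 genes that included CD79A and CD79B. In the CD24 KO column 19 of the 43 were listed at 0 and 8 reached 1 FPKM, whereas 3 genes reached it in Scr and 3 in RCC2 KO. Without CD79A, the summed level of the other 42 genes was 15.7 FPKM for Scr, 23.2 FPKM for CD24 KO and 12.2 FPKM for RCC2 KO. Among these 42 the highest gene in every column was CD40, a TNF receptor family member that epithelial cells also express, at 9.69, 11.8 and 7.24 FPKM. Several surface molecules and factors that define B cells were at or near 0. MS4A1 (CD20) was listed at 0 in every column. PAX5, the transcription factor that commits cells to the B lineage, was at 0.038, 0.022 and 0.010 FPKM. EBF1, a factor known to act on the CD79A promoter in B-cell precursors, was listed at 0 in Scr and CD24 KO and at 0.011 FPKM in RCC2 KO. The surrogate light chain genes VPREB1 and IGLL1 and the coactivator POU2AF1 were listed at 0 in every column. Other genes of the list, among them CD22, CD72 and SPIB, had low values that were higher in CD24 KO than in Scr and are given next.
Of the list, 8 genes were compared, and 5 of these were under 1 FPKM in Scr, so they entered through a knockout column and no count over the 8 is support for a change. In CD24 KO, 3 of the 8 were called, all higher, 37.5% against 5.69% of all genes compared. The median log2 change over the 8 was 0.67, beside -0.034 over all genes. In RCC2 KO none was called, where 1.20% of all genes were, and the median was -0.086. Beside CD79A, the called genes were SPIB, an ETS-family transcription factor of B cells and some epithelial cells, and CD38, a cell-surface enzyme that breaks down NAD. SPIB values were 0.182, 1.85 and 0.166 FPKM for Scr, CD24 KO and RCC2 KO, with a log2 change of 1.27 in CD24 KO. CD38 was at 0.541, 2.10 and 0.408 FPKM, with a log2 change of 1.01 in CD24 KO. CD22, an inhibitory co-receptor of B cells, was at 0.700, 2.05 and 0.599 FPKM, and CD72 at 0.476, 1.08 and 0.394 FPKM. Neither passed 2-fold, with log2 changes of 0.84 and 0.49 in CD24 KO. The adaptor BANK1 and the complement receptor CR2 had log2 changes of 0.16 and 0.047 in CD24 KO. Each of these genes stayed under 3 FPKM in the CD24 KO column, far below CD79A.

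**Figure D4:**
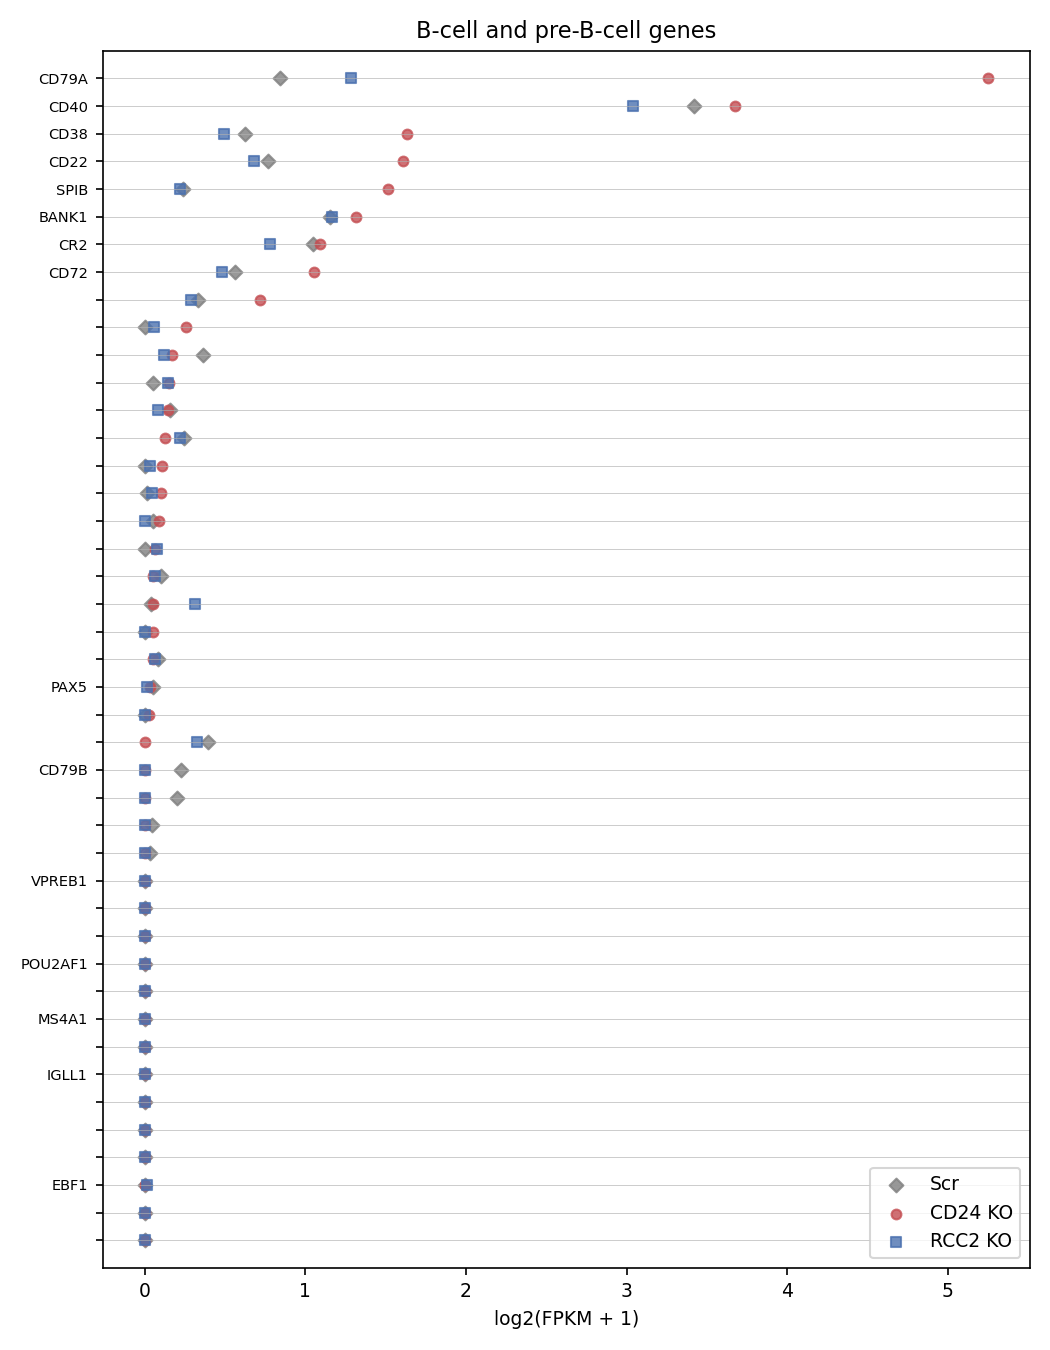
Each row is 1 of the 43 B-cell and pre-B-cell genes, ordered by its value in CD24 KO, with log2(FPKM + 1) in Scr (diamonds), CD24 KO (circles) and RCC2 KO (squares) on the horizontal axis. CD79A in CD24 KO lies at 37.0 FPKM, CD40 is next at 11.8 FPKM, and MS4A1, VPREB1 and most other rows at the bottom lie at 0. Rows are labelled for genes named in the text.

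Markers of other blood cells were also low. PTPRC (CD45), which marks all leukocytes, was listed at 0 in every column. The 6 T-cell markers summed to 0 FPKM in Scr and RCC2 KO and to 0.042 FPKM in CD24 KO, and the 4 NK-cell markers to 0.039, 0.243 and 0.025 FPKM in Scr, CD24 KO and RCC2 KO. The 7 myeloid markers summed to 1.38, 1.04 and 0.526 FPKM. CORO1A, an actin-binding protein, was the 1 marker of leukocytes, T cells, NK cells or myeloid cells that reached 1 FPKM, with values of 1.73, 0.961 and 1.89 FPKM. The epithelial markers KRT7, KRT8, KRT18, KRT19, EPCAM and CDH1 were expressed in every column, and the list of 7 summed to 1119, 898 and 1292 FPKM. KRT5 was listed at 0. KRT8 and KRT18, which share 1 position in the table, were called lower in CD24 KO, at log2 changes of -1.17 and -1.05, from 336 to 149 FPKM and from 293 to 141 FPKM. The prostate luminal markers KLK2 and KLK3 were listed at 0 in every column.

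Downstream of the receptor, the list of 40 signaling genes had 30 compared. None was called against Scr in CD24 KO or RCC2 KO, where 5.69% and 1.20% of all genes compared were. The median log2 change was 0.10 in CD24 KO and -0.003 in RCC2 KO, beside -0.034 and -0.0036 over all genes. In RCC2 KO against CD24 KO, 2 of the 30 were called, 6.67% beside 8.31% of all genes compared. These were DOK3, higher at 1.07, and NFATC1, lower at -1.09. DOK3 is an adaptor that restrains B-cell receptor signaling, and NFATC1 is a calcium-regulated transcription factor. LYN, the kinase that phosphorylates CD79A and CD79B in B cells, had values of 53.2, 95.3 and 63.4 FPKM for Scr, CD24 KO and RCC2 KO, with log2 changes of 0.83 and 0.25. SYK, which binds the phosphorylated tails, was at 0.387, 0.376 and 1.20 FPKM, with log2 changes of -0.012 and 0.67. BLNK, the adaptor that SYK phosphorylates, was listed at 0 in Scr and RCC2 KO and at 0.043 FPKM in CD24 KO. BTK was at 0.027, 0.365 and 0.079 FPKM. LYN was thus well expressed, while SYK, BLNK and BTK, which act after the receptor in B cells, lay under 1 FPKM in the CD24 KO column. LYN, SYK, BLNK and BTK were named for their place beside CD79A after their values were seen.

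For ARHGEF1, 21 genes of the Gα12/13 and RHOA axis were listed, itself included, and 20 were compared. None was called in CD24 KO, where 5.69% of all genes compared were, with a median log2 change of 0.06. In RCC2 KO 1 was called, 5% of the 20 beside 1.20% of all genes compared. This was S1PR3, a receptor for sphingosine-1-phosphate that signals through these G proteins. Its values were 4.96 FPKM for Scr and 1.89 FPKM for RCC2 KO, a log2 change of -1.04. It was at 6.04 FPKM in CD24 KO. The other exchange factors of the same regulator-of-G-protein-signaling group were ARHGEF11, at 12.1, 8.01 and 12.1 FPKM in Scr, CD24 KO and RCC2 KO, and ARHGEF12, at 56.2, 66.4 and 57.5 FPKM. RHOA, the GTPase they act on, was at 375, 311 and 377 FPKM. The 1 gene of the list that was not compared was the receptor S1PR1, which stayed under 1 FPKM in every column.

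For RABAC1, 21 genes were listed and compared, itself included, with its relatives PRAF2 and ARL6IP5, the Rab GDP dissociation inhibitors and Rab GTPases. In CD24 KO 1 of the 21 was called, 4.76% beside 5.69% of all genes compared. In RCC2 KO none was, beside 1.20% of all genes. The median log2 changes over the 21 were 0.043 and -0.071. The gene called was PRAF2, a member of the same prenylated Rab acceptor family on chromosome X, with values of 4.44, 27.1 and 5.36 FPKM for Scr, CD24 KO and RCC2 KO. Its log2 change was 2.37 in CD24 KO and 0.22 in RCC2 KO. No other gene of the table overlaps PRAF2. ARL6IP5 was at 124, 125 and 139.7 FPKM. VAMP2, a vesicle SNARE that binds RABAC1, was at 15.1, 26.3 and 17.0 FPKM, with log2 changes of 0.76 and 0.17. GDI2, which extracts Rabs from membranes, had a log2 change of -0.43 in CD24 KO. RABAC1 itself thus had a log2 change of 0.19 in the column where PRAF2 had one of 2.37.

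The genes with the pattern most like that of CD79A were sought among 9376 genes with at least 5 FPKM in a column and above 0 in all, by the Euclidean distance between the pairs of log2 changes in CD24 KO and RCC2 KO. With 3 columns this likeness rests on 2 differences from the same Scr values. The 5 nearest genes were MFAP2, SFRP1, NUPR1, AKR1C1 and MFAP5, at distances from 1.00 to 1.36, and none lies on chromosome 19. MFAP2 and MFAP5, glycoproteins of elastin microfibrils, went from 0.252 to 12.5 FPKM and from 0.152 to 8.54 FPKM between Scr and CD24 KO, and were at 0.447 and 0.589 FPKM in RCC2 KO. SFRP1, a secreted antagonist of Wnt ligands, had values of 0.329, 10.6 and 0.550 FPKM for Scr, CD24 KO and RCC2 KO, and its position overlaps that of MIR548AO. NUPR1, a stress-induced nuclear protein, was at 6.50, 63.0 and 9.67 FPKM, and AKR1C1 at 1.14, 17.0 and 1.76 FPKM. Each of the 5 was highest in CD24 KO and above Scr in RCC2 KO, as the search for nearness favours. MFAP2, SFRP1, AKR1C1 and MFAP5 reached the minimum of 5 FPKM only in CD24 KO, so the filter also made that column their highest. The RCC2 KO values of the 5 genes were from 1.49-fold (NUPR1) to 3.86-fold (MFAP5) those of Scr. CD79A had the largest log2 change of the 6 in CD24 KO.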

How the data were processed

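The authors deposited 1 table of FPKM values per gene with a locus, 1 column per condition; how the libraries of a condition were combined is not given in the sources used here. Per the labels, the submitters' processing notes name HISAT, StringTie, Cufflinks and GATK, with no role or version. The labels give a TruSeq RNA kit, and the methods a stranded mRNA kit with paired-end reads. The build is not given in the sources used here. Of 25123 symbols found once in RefSeq, 15.4% overlapped their GRCh38 position, and positions were read as hg19. Starts were read as counted from 0, since end minus start equalled the RefSeq gene length for 3674 genes, against 443 for the other reading, and were printed from 1.

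Genes with at least 1 FPKM in at least 1 column were compared as log2(FPKM + 1), with calls at 2-fold. A test with limma, planned for a table with a value per library, could not be run, and protein sequences were not analysed here. The members and gene lists were chosen with earlier results of these data known, and lists were written from general knowledge. Named genes were the 4 members, RPS19, genes of at least 1 FPKM within 250 kb of CD79A or among B-cell and marker genes, called genes of the other lists, and the 5 nearest patterns, apart from those said to be named later, RHOA, ARHGEF11, ARHGEF12, ARL6IP5, VAMP2 and GDI2, and markers listed at or near 0. Some genes that this rule names are not reported here. Promoters of 3 of 5 genes (CD79A, ARHGEF1 and RPS19) were matched in RefSeq, using the first start listed for each. Calculations were tested on simulated data. Alternatives were pseudocounts of 0.1 and 5, median centring, quantile normalization, other filters and other windows. Python 3.11.15, NumPy 2.4.6, pandas 2.3.3 and matplotlib 3.10.9 were used.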

Additional observations from a re-analysis of the deposited data

How the results depend on the processing

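No paired analysis was possible because the table holds 1 value per condition, and for the same reason no replicate could be left out. CD79B was listed at 0 in both knockouts and was not recomputed. Of 49 values computed under alternatives, 37 stayed within 0.1 of the reported log2 change or within 1.5 times the reported count. Some of the 37 were counts of 0 that stayed at 0. A change of sign was looked for only in CD79A in CD24 KO, the 1 called change recomputed, and was not seen. A pseudocount cannot reverse a sign, so this is a weak check. The size of the CD79A change depended on the pseudocount. In CD24 KO its log2 change was 5.38 with a pseudocount of 0.1 and 2.86 with 5, and in RCC2 KO 0.78 and 0.15. With quantile normalization RABAC1 was at 0.34 in CD24 KO, still under 2-fold, and ARHGEF1 in RCC2 KO was at -0.0017 instead of 0.02. Among genes within 500 kb of CD79A in CD24 KO, 2 were called with a pseudocount of 0.1 (CD79A and CEACAM6), 2 within 1000 kb (CD79A and CYP2S1), and 0 with at least 1 FPKM in every column, a filter that removes CD79A because of its Scr value. Of the B-cell genes in CD24 KO, 5 were called with a pseudocount of 0.1, 1 (CD79A) with a pseudocount of 5, 2 (CD79A and SPIB) with quantile normalization, and 0 with at least 1 FPKM in every column, where 2 genes remained. Genes close to a highly expressed gene had 3 calls with a minimum of 1000 FPKM and 7 with 400 FPKM, a minimum chosen after seeing the data.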

Other observations

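CD79A is a gene of low level in Scr that lies within 10 kb of a highly expressed gene, RPS19. Other genes of under 5 FPKM in Scr that lie within 10 kb of a gene of at least 1000 FPKM in Scr were therefore described. Of 33 such genes near 30 highly expressed genes, 13 were compared, and in CD24 KO 2 were called higher and 1 lower, 23.1% against 5.69% of all genes compared, with a median log2 change of 0.22. RPS19, at 485 FPKM, lies under that minimum, so CD79A was not among them. With a minimum of 400 FPKM, set after seeing the data so that RPS19 and with it CD79A entered, 130 genes near 102 highly expressed genes were found, and 40 were compared. In CD24 KO, 4 of these were called higher, the selected CD79A among them, and 3 lower, 17.5% in all, with a median log2 change of 0.15. Beside CD79A the genes called higher were CLMP, an adhesion molecule, from 1.47 FPKM in Scr to 4.81 FPKM, GRAMD2, from 0.918 to 2.91 FPKM, and BEST1, a chloride channel, from 0.443 to 1.98 FPKM. GRAMD2 and BEST1 passed the minimum of 1 FPKM only through the CD24 KO column, so these counts are no support for a change. In CD24 KO against Scr, CD79A was the farthest of the 40 from Scr, at a log2 change of 4.41, and the lowest was HIST1H2AH, at -2.15. As CD79A was selected by its CD24 KO value and the minimum was set to include it, nothing is read from that rank. In RCC2 KO, 1 of the 40 was called higher and 4 lower, 12.5% in all against 1.20% of all genes compared. Any of the 40 under 1 FPKM in Scr entered only through a knockout column, so these counts are no support for a change either. The gene called higher had a log2 change of 6.52 in RCC2 KO, larger than that of CD79A in CD24 KO. The highest log2 difference of RCC2 KO against CD24 KO among the 40 was also 6.52. The FPKM values of that gene are not given here. It may be listed at 0 in Scr, unlike CD79A, so the 2 changes are not ranked against each other. RPS19 itself was at 431 FPKM in CD24 KO against 485 FPKM in Scr.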
